A study of Macaca fascicularis with 12 samples.

Results

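The genes described here carry out or restrain regulated forms of cell death. They are MLKL and RIPK3 of necroptosis, CASP4 and GSDMD of pyroptosis, the death receptor FAS with its initiator caspase CASP8, and the survival factor BCL2A1. They were chosen by symbol, as every probe set to which the annotation of the rhesus macaque array gives 1 of 9 gene symbols and no other. Probe sets were found for 7 of the 9 genes, 12 probe sets in all, out of 14132 singly named genes and 52766 probe sets that are not controls. No probe set carried RIPK1 or CASP1 as its single symbol, and both genes are not analysed here. The BV group was left-hemisphere brain tissue of adult male cynomolgus macaques (Macaca fascicularis), given BV-HSVtk, a baculovirus (an insect virus used as a gene vector), purified by membrane chromatography and high-speed centrifugation, in 4 striatal injections of 10 µL with 1e8 particles each. The mock group was tissue from the right hemisphere of the same animals, given virus-free Sf9 insect cell medium purified in the same manner. Tissue was taken on day 2 from 3 animals, 2 pieces of about 100 mg per hemisphere, with 1 array per piece. There were thus 6 BV and 6 mock arrays, forming 6 pairs by replicate number. Since the left side always got virus, side and treatment cannot be told apart, and there was no uninjected tissue among the arrays. In such tissue pieces, fewer cells of a type and less RNA per cell cannot be told apart either.

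In necroptosis, the kinase RIPK3 is activated by RIPK1, by the toll-like receptor adaptor TICAM1 or by the nucleic acid sensor ZBP1, and phosphorylates the pseudokinase MLKL, which then breaches the plasma membrane. In pyroptosis, the inflammatory caspases CASP1 and CASP4 cut gasdermin D (GSDMD), whose amino-terminal part forms membrane pores. Ligation of FAS recruits CASP8, which starts apoptosis and at the same time cuts RIPK1 and RIPK3 and so holds necroptosis in check. BCL2A1 is a relative of BCL2 that blocks mitochondrial apoptosis and is best known from myeloid cells. Several of these genes, MLKL, CASP4 and FAS among them, are known to be inducible by interferons.

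Levels below are log2 normalized intensities, folds are BV minus mock on that scale, and errors of folds are standard errors of the limma fit over 3 animals. The pieces differ as array sets: median deposited intensities were 50.2 to 62.8 on the arrays of piece 1 and 25.4 to 32.7 on those of piece 2 before normalization. Mock replicate 6 had the highest ratio of 3' to 5' actin signal, 2.40, against 1.10 to 1.40 on the other arrays. Markers of brain region varied widely among pieces. The summed linear level of 6 measured markers of medium spiny neurons, the main neurons of the striatum, ran from 341 to 4732 in BV and from 459 to 8830 in mock tissue. That of 5 measured thalamic markers ran from 757 to 5967 in BV and from 870 to 5848 in mock tissue.

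Of the 7 genes, 6 had a higher mean level in BV tissue, as did 46.9% of all tested probe sets, and CASP8 was near 0. BCL2A1 had the largest fold, 2.38 ± 0.60, followed by MLKL at 1.40 ± 0.25, CASP4 at 1.10 ± 0.27, FAS at 0.72 ± 0.27, RIPK3 at 0.58 ± 0.21 and GSDMD at 0.40 ± 0.20. None of the 8 probe sets bright enough to be tested passed the limma test at an adjusted p of 0.05, a threshold that 0.0284% of all 31660 tested probe sets passed. At an unadjusted p under 0.05, 6 of the 8 were higher in BV and none lower, against 5.15% of all tested probe sets higher and 8.8% in either direction. Higher values in 3 of 3 animals were seen for 7 of the 8 (15.9% of all) and in 6 of 6 pairs for 3 of the 8 (3.37% of all). CASP4 supplied 2 of the 8 probe sets. Counted by gene, 5 of the 7 had an unadjusted p under 0.05 in limma. By gene, 6 were higher in 3 of 3 animals and 2 in 6 of 6 pairs. For 0 of the 8 did every BV array lie above every mock array, as was so for 0.237% of all. The median fold of the 7 genes was 0.72, and that of all tested probe sets was -0.021. These genes were picked with earlier results of the same arrays known, so the direction of the counts is no independent evidence. The mean level in mock tissue of each of the 8 was above the intensity filter of 4.95, the lowest being 5.16, so none was tested only because of its level in BV tissue.

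**Figure D1:**
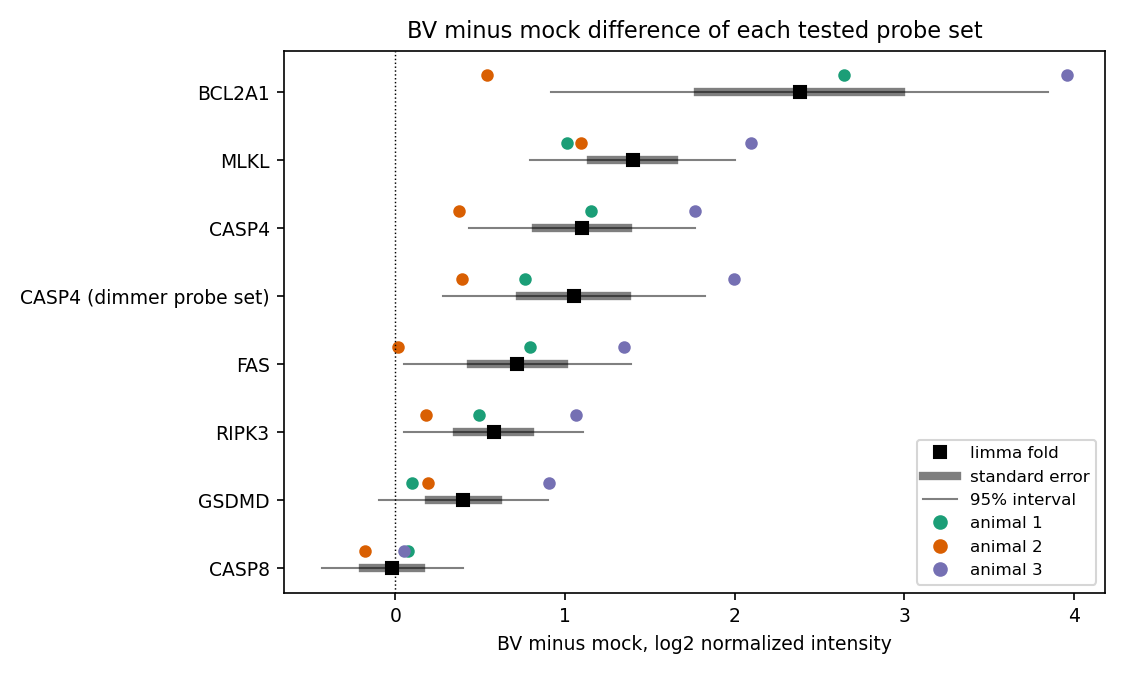
BV minus mock differences (x axis, log2) of the 8 tested probe sets, 1 per row. Squares are limma folds, thick bars standard errors, thin bars 95% intervals and coloured dots the 3 animals. BCL2A1 has the largest fold, 2.38, and the widest interval, and CASP8 lies at -0.019.

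MLKL, the membrane-breaching executor of necroptosis, had a difference of at least 1.01 in each of the 3 animals. Its levels in animals 1, 2 and 3 were 6.72, 6.83 and 7.79 in BV tissue, against 5.71, 5.74 and 5.70 in mock tissue. The means of the 3 mock hemispheres thus lay close together, and every BV hemisphere mean lay above them. The 2 mock pieces of an animal differed more, at 5.27 and 6.14, 5.15 and 6.33, and 6.16 and 5.24 in animals 1, 2 and 3. Over single arrays MLKL ran from 6.06 to 7.90 in BV (median 7.21) and from 5.15 to 6.33 in mock tissue (median 5.71), so that the lowest BV array, replicate 1, lay below 3 mock arrays. The means were 7.11 ± 0.59 in BV and 5.71 ± 0.022 in mock tissue (SD, n = 3 animals), a BV to mock ratio of 2.64 with a 95% interval of the log2 fold from 0.80 to 2.00. The limma adjusted p was 0.323, and the unadjusted p 0.00132. A fit to single arrays with replicate number as the block takes the pieces of 1 animal as independent, and there the MLKL fold was the same with an adjusted p of 0.0572. In that fit 0 of the 8 probe sets passed, against 0.174% of all. There 7 of the 8 had an unadjusted p under 0.05, as did 4545 of all 31660 tested probe sets.

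RIPK3, the kinase upstream of MLKL, differed less. Its levels in animals 1, 2 and 3 were 5.76, 5.75 and 6.15 in BV tissue, against 5.26, 5.57 and 5.09 in mock tissue. All 3 BV hemispheres lay above all 3 mock hemispheres, but the arrays overlapped: mock replicate 4, at 6.21, exceeded 5 of the 6 BV arrays. The fold of RIPK3 was 0.58 ± 0.21, with a 95% interval from 0.05 to 1.10 and a limma adjusted p of 0.564. The difference was 0.49, 0.18 and 1.06 in the 3 animals, and positive in 5 of 6 pairs.

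**Figure D2:**
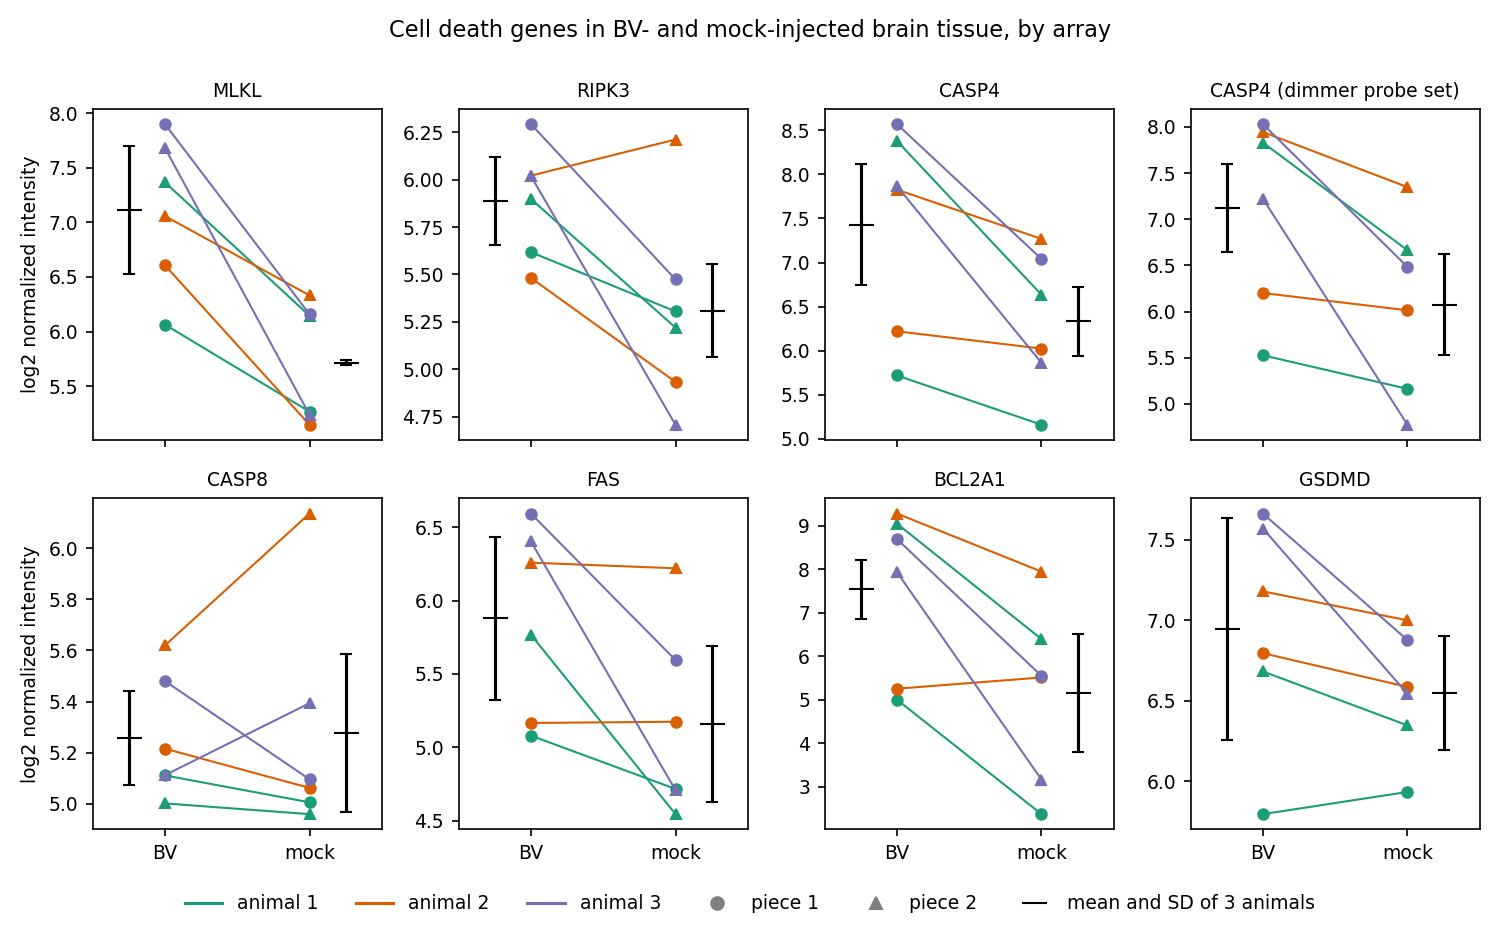
Log2 normalized intensity (y axis, own scale per panel) of the 8 tested probe sets in BV and mock tissue, with lines joining arrays of 1 replicate number, colours for animals and symbols for pieces. Black bars are means with SD over 3 animals. MLKL is higher in BV in all 6 pairs, BCL2A1 in 5 of 6, and CASP8 in 4 of 6.

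CASP4, the caspase that senses intracellular lipopolysaccharide, was read by 2 probe sets, and both gave folds of similar size. The brighter one had levels of 7.05, 7.02 and 8.22 in BV tissue of animals 1, 2 and 3, against 5.90, 6.65 and 6.45 in mock tissue. The dimmer one had levels of 6.68, 7.07 and 7.63 in BV tissue, against 5.91, 6.68 and 5.63 in mock tissue. For the brighter probe set every BV hemisphere lay above every mock hemisphere, while for the dimmer one the BV level of animal 1 about equalled the mock level of animal 2. The folds were 1.10 ± 0.27 (adjusted p = 0.501) and 1.05 ± 0.31 (adjusted p = 0.564) in limma, with 95% intervals from 0.43 to 1.77 and from 0.28 to 1.82. Both probe sets were higher in BV in 6 of 6 pairs, yet their arrays overlapped widely, from 5.72 to 8.57 in BV and from 5.16 to 7.27 in mock tissue for the brighter one. CASP4 has close relatives in CASP1 and CASP5. Probe sequences were not used here, so a share of signal from them was not tested.

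GSDMD, the pore-forming substrate of the inflammatory caspases, had the smallest positive fold. Its levels in animals 1, 2 and 3 were 6.24, 6.99 and 7.62 in BV tissue, against 6.14, 6.79 and 6.71 in mock tissue. Only in animal 3 did BV tissue exceed its mock side by more than 0.20, by 0.91. The fold was 0.40 ± 0.20, with a 95% interval from -0.10 to 0.90 and a limma adjusted p of 0.569. The interval includes 0.

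FAS, the receptor for FAS ligand, was read by 4 probe sets, of which the brightest was tested. Its levels in animals 1, 2 and 3 were 5.42, 5.71 and 6.50 in BV tissue, against 4.63, 5.70 and 5.15 in mock tissue. The difference was thus 0.79 in animal 1 and 1.35 in animal 3, and 0.015 in animal 2, whose mock side was the highest of the mock hemispheres. That mock side joined 5.17 in replicate 3 and 6.22 in replicate 4, the highest mock array. The fold was 0.72 ± 0.27, with a 95% interval from 0.05 to 1.39 and a limma adjusted p of 0.564. The other 3 FAS probe sets were under the intensity filter. With no filter, their folds were 1.34 ± 0.36, 0.71 ± 0.28 and 0.024 ± 0.17, with limma adjusted p of 0.622, 0.625 and 0.970. The last of them had deposited intensities of at most 2.95 in BV and 4.05 in mock tissue, near the bottom of the scale.

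CASP8, the initiator caspase recruited by FAS, did not follow the others. Its levels in animals 1, 2 and 3 were 5.06, 5.42 and 5.30 in BV tissue, against 4.98, 5.60 and 5.24 in mock tissue. The 2 groups overlapped throughout, and the pairs split into 4 higher and 2 lower. The fold was -0.019 ± 0.17, with a 95% interval from -0.44 to 0.40 and a limma adjusted p of 0.968. The interval leaves room for a modest change in either direction, and the probe set was dim, brighter than about 10.1% of tested probe sets. The other CASP8 probe set, under the filter, had a fold of 0.16 ± 0.34 with no filter (limma adjusted p = 0.888).

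BCL2A1, the survival factor, varied most. Its levels in animals 1, 2 and 3 were 7.03, 7.27 and 8.32 in BV tissue, against 4.38, 6.73 and 4.36 in mock tissue. Every BV hemisphere lay above every mock hemisphere, but the mock side of animal 2 stood well above the other mock sides. That side joined 5.51 in mock replicate 3 and 7.95 in mock replicate 4. The other mock sides joined 2.37 and 6.40 in animal 1, and 5.55 and 3.17 in animal 3. Both thus held a dim array, and even mock replicate 3 lay above their means. Mock replicate 4 was the highest mock array for each tested probe set. Over single arrays BCL2A1 ran from 5.01 to 9.29 in BV (median 8.32) and from 2.37 to 7.95 in mock tissue (median 5.53). Its lowest mock signal was near the bottom of the scale at a deposited intensity of 2.23. The means were 7.54 ± 0.69 in BV and 5.16 ± 1.36 in mock tissue (SD, n = 3 animals), a ratio of 5.21. The limma fold of 2.38 ± 0.60 had a 95% interval from 0.92 to 3.84 and an adjusted p of 0.508. It depended on the pseudocount because of the dim mock arrays, at 2.61 with a pseudocount of 1 and 1.89 with one of 16.

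**Figure D3:**
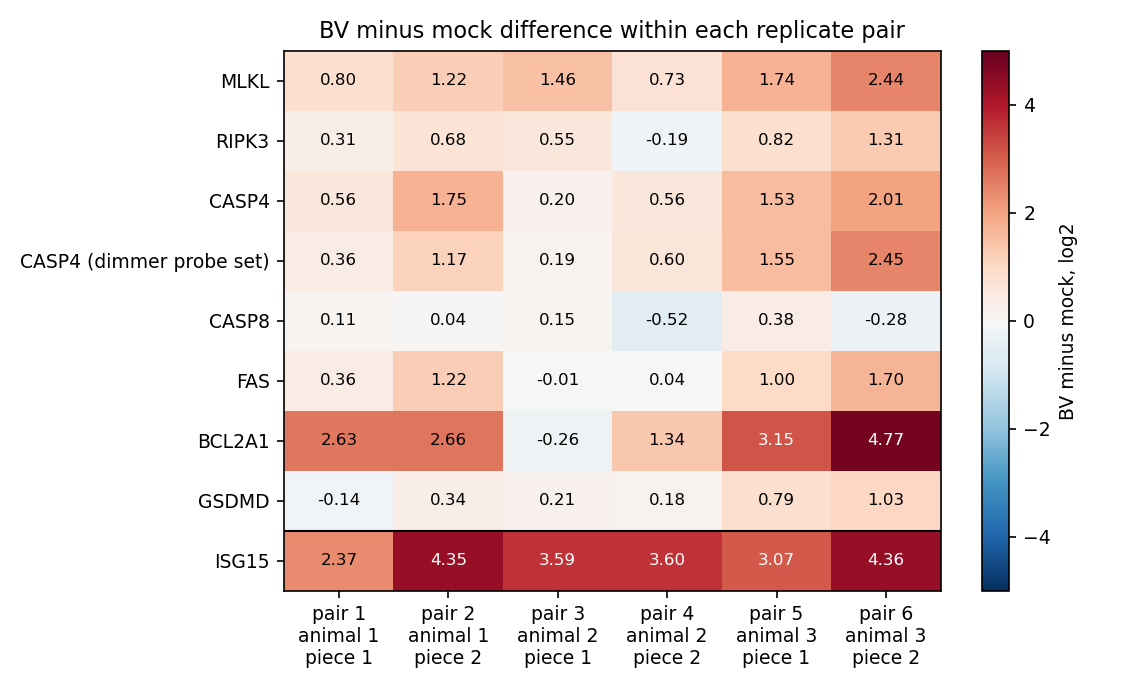
BV minus mock difference (colour and number, log2) of each tested probe set (rows) in each replicate pair (columns), with ISG15 in the bottom row for comparison. The columns of animal 2 hold the smallest differences for most cell death genes, such as -0.0083 and 0.038 for FAS, while ISG15 lies at 3.59 or above in both.

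The median difference of the 7 genes was 0.79 in animal 1, 0.19 in animal 2 and 1.35 in animal 3. Animal 2 had the smallest difference for 5 of the 7 genes, against 35.9% of all tested probe sets, and animal 3 the largest for 6 of the 7, against 40%. The highest of the 12 arrays was BV replicate 5 for 5 of the 7 genes, against 9.28% of all, and the lowest was mock replicate 6 for 1 of the 7, against 18.7%. MLKL (1.01, 1.09 and 2.09 in animals 1, 2 and 3) and GSDMD (0.099, 0.19 and 0.91) had their smallest difference in animal 1 instead. CASP8 (0.074, -0.18 and 0.052) had its largest in animal 1. ISG15, an interferon-induced gene that passed the limma test (fold 3.56 ± 0.13, adjusted p = 0.00539), differed by 3.36, 3.60 and 3.71 in the 3 animals. Its difference in animal 2 thus lay between those of the other animals. The interaction between animal and treatment, tested in limma on single arrays, had unadjusted p from 0.200 to 0.867 for the 8 probe sets and an adjusted p of 0.9998 for each, so that the difference between animals did not pass. At an unadjusted p under 0.05, 2.32% of all probe sets showed such an interaction and 0 of these 8.

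Leaving out animal 2 changed the calls. Without it, 5 of the 8 probe sets passed in limma, all of them higher in BV, against 3.67% of all tested probe sets called higher and 5.83% called in either direction in that fit. These were BCL2A1 at 3.30 (adjusted p = 2.81e-05), both CASP4 probe sets at 1.46 (adjusted p = 0.00222) and 1.38 (adjusted p = 0.00877), MLKL at 1.55 (adjusted p = 0.00312) and FAS at 1.07 (adjusted p = 0.0294). That fit holds 2 animals and was 1 of 3 that each left out 1 animal. With so few animals, its p-values rest largely on the variance that limma pools over all probe sets. The animal left out was also the one with the smallest difference for 5 of the 7 genes. Without animal 1 and without animal 3, 0 of the 8 passed and 4 of the 8 had an unadjusted p under 0.05 in either fit. Of all 31660 tested probe sets, 1085 did so without animal 1 and 2243 without animal 3. Without animal 3 the folds of MLKL and BCL2A1 were 1.05 and 1.59, and those of FAS, RIPK3, GSDMD and the dimmer CASP4 probe set 0.40, 0.34, 0.15 and 0.58. Without BV replicate 2 the CASP4 folds were 0.66 for the brighter and 0.67 for the dimmer probe set (limma adjusted p = 0.815 for both), and that of GSDMD was 0.25. Without mock replicate 3 the RIPK3 fold was 0.37 (limma adjusted p = 0.942). Without mock replicate 6, the array with the high actin ratio, the folds of MLKL, BCL2A1 and GSDMD were 1.25, 1.98 and 0.34, and those of the brighter CASP4 probe set, FAS and RIPK3 were 0.90, 0.57 and 0.45.

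**Figure D4:**
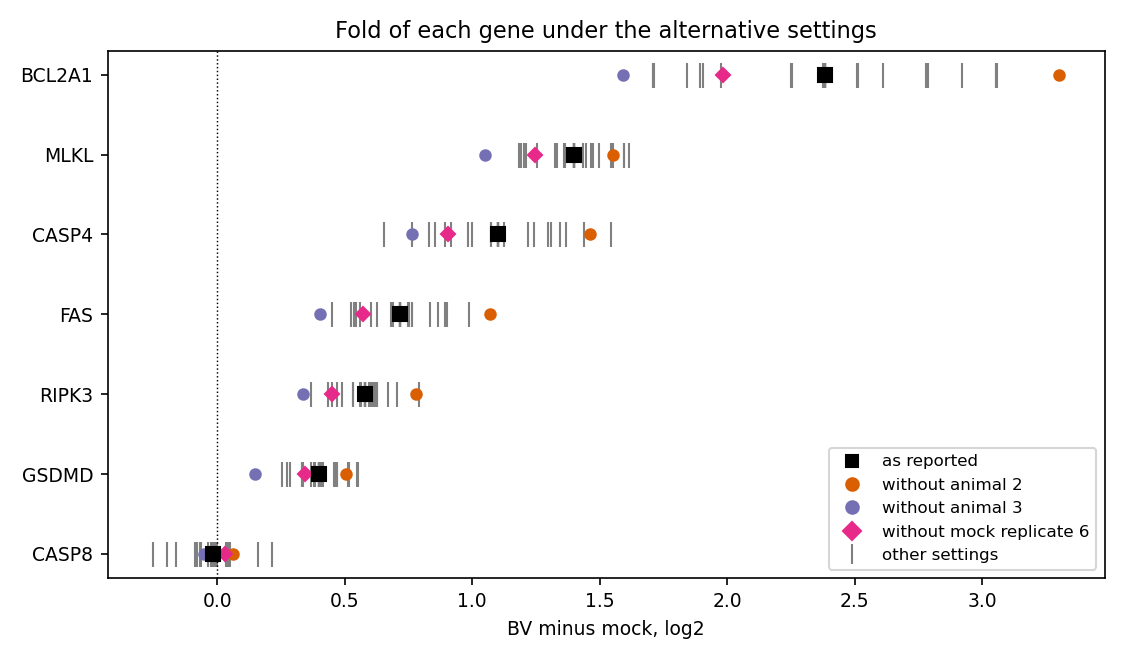
Fold of each gene (x axis, BV minus mock, log2) as reported (squares) and under the alternative settings (grey ticks and coloured symbols). Leaving out animal 3 moved BCL2A1 to 1.59 and leaving out animal 2 moved it to 3.30. The folds of all genes but CASP8 stay above 0 in every setting drawn.

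For 6 of the 7 genes the mean difference was larger in the arrays of piece 2, and for CASP8 it was smaller. BCL2A1 had mean differences of 2.92 in piece 2 and 1.84 in piece 1, the brighter CASP4 probe set 1.44 and 0.76, and FAS 0.99 and 0.45, whereas MLKL had 1.46 and 1.33. CASP8 had -0.25 in piece 2 and 0.21 in piece 1. In a limma test of piece 2 minus piece 1 over the 3 animals, BCL2A1 (1.08) and both CASP4 probe sets (0.68 and 0.70) had unadjusted p of 0.0289, 0.0463 and 0.0278. That makes 3 of the 8 at an unadjusted p under 0.05, against 3.45% of all tested probe sets, and adjusted p was 0.995 to 0.998 for the 8. Counted by gene, it was 2 of the 7. ISG15 also differed more in piece 2, by 4.10 against 3.01 in piece 1 (limma unadjusted p = 0.0281, adjusted p = 0.995).

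No gene of the marker lists passed the limma test at an adjusted p of 0.05. Of all tested probe sets, 46.9% had a higher mean in BV tissue, and 5.15% were higher at an unadjusted p under 0.05. Of 12 listed neutrophil and monocyte markers 9 were tested, with 8 higher in BV tissue, 4 at an unadjusted p under 0.05, and median differences of 0.94, 0.033 and 1.26 in animals 1, 2 and 3. Their summed linear level ran from 1371 to 5695 in BV and from 640 to 5255 in mock tissue. S100A12 and CCR2 were under the filter, and CXCR2 was not measured by a singly named probe set. All 11 microglia and macrophage markers were tested, with 8 higher and 3 lower, and median differences of 0.19, -0.017 and 0.50. At an unadjusted p under 0.05 in limma, 4 were higher and 1 lower. The higher ones were CD68 at 1.41 ± 0.47, C1QB at 0.95 ± 0.17, C1QC at 0.85 ± 0.21 and C1QA at 0.58 ± 0.11. Their limma adjusted p was 0.323 to 0.564. The other tested probe sets of CD68 and C1QA had folds of -0.17 and 0.14. The lower one was ITGAM, at -0.62 ± 0.15 (limma adjusted p = 0.507) and higher in BV in 0 pairs. The summed level of the 11 markers ran from 6092 to 15630 in BV and from 4370 to 9914 in mock tissue. Of 8 T and NK cell markers 3 were tested, with folds of 1.08 for GZMB, 0.69 for NKG7 and 0.0029 for CD8A, and medians of 0.16, 0.59 and 1.17. CD3D, CD3E, CD3G, CD2 and PRF1 were not measured by a singly named probe set. The summed level of the 3 tested markers ran from 122 to 529 in BV and from 120 to 231 in mock tissue. The striatal markers had median differences of -1.72, 1.04 and -2.30 in animals 1, 2 and 3, and the thalamic markers 1.79, 0.82 and 0.88. The part of cell composition and region in the folds of the cell death genes was not tested.

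Genes that work with these were followed in 4 lists, each gene by its brightest tested probe set. No member of any list passed the limma test over all probe sets. Of 14 necroptosis partners 9 were tested, 8 with higher and 1 with lower values in BV tissue, and the median fold was 0.038. CFLAR, the inhibitor that pairs with CASP8 and restrains both apoptosis and necroptosis, had levels of 7.70 ± 0.56 in BV and 6.70 ± 0.19 in mock tissue (SD, n = 3 animals). Its fold of 1.00 ± 0.19 (limma adjusted p = 0.397) was positive in 6 of 6 pairs, and its other 2 tested probe sets had 0.59 and 0.92. ZBP1, the nucleic acid sensor that engages RIPK3, had a fold of 0.75 ± 0.30 (limma adjusted p = 0.564), positive in 6 of 6 pairs. It differed by 0.40 in animal 1, 0.19 in animal 2 and 1.65 in animal 3. TNF was under the filter, and FADD, CYLD, TNFRSF1A and TRAF2 were not measured by a singly named probe set.

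Of 19 symbols of inflammasome and pyroptosis partners 13 were tested, 10 with higher and 3 with lower values, and the median fold was 0.17. GBP2, an interferon-induced GTPase of the family that brings CASP4 to intracellular bacteria, had a fold of 1.52 ± 0.35 (limma adjusted p = 0.462). Its other 2 tested probe sets disagreed, at -0.027 and 1.65. PYCARD, the adaptor ASC that links sensors to CASP1, had 0.53 ± 0.24 (limma adjusted p = 0.569), positive in 4 of 6 pairs. Among the sensor genes, NLRP3 (0.0061) and CARD8 (0.049) lay near 0. NLRP1 was lower at -0.38 ± 0.14 (limma unadjusted p = 0.0386, adjusted p = 0.564), and higher in BV in 1 pair only. AIM2 was lower at -0.50 ± 0.24 (limma adjusted p = 0.569), but its other 3 tested probe sets ran from 0.14 to 0.61. NLRC4, CASP5 and GSDMC were under the filter.

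Of 10 death ligands, receptors and partners 7 were tested, 4 with higher and 3 with lower values, and the median fold was 0.26. TNFRSF21, death receptor 6, had a fold of 0.63 ± 0.25 (limma adjusted p = 0.564) and TNFSF10, the ligand TRAIL, 0.60 ± 0.27 (limma adjusted p = 0.569). The other 2 TNFSF10 probe sets ran from -0.20 to 0.65, and the FAS ligand gene FASLG was under the filter. Of 22 genes of the BCL2 family and intrinsic apoptosis 13 were tested, 7 with higher and 6 with lower values, and the median fold was 0.16. PMAIP1, the death-promoting protein NOXA, had a fold of 1.17 ± 0.44 (limma adjusted p = 0.564). It differed by 1.10 in animal 1, -0.011 in animal 2 and 2.43 in animal 3. BAX, which forms pores in mitochondria, had 0.57 ± 0.22 (limma adjusted p = 0.564).

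**Figure D5:**
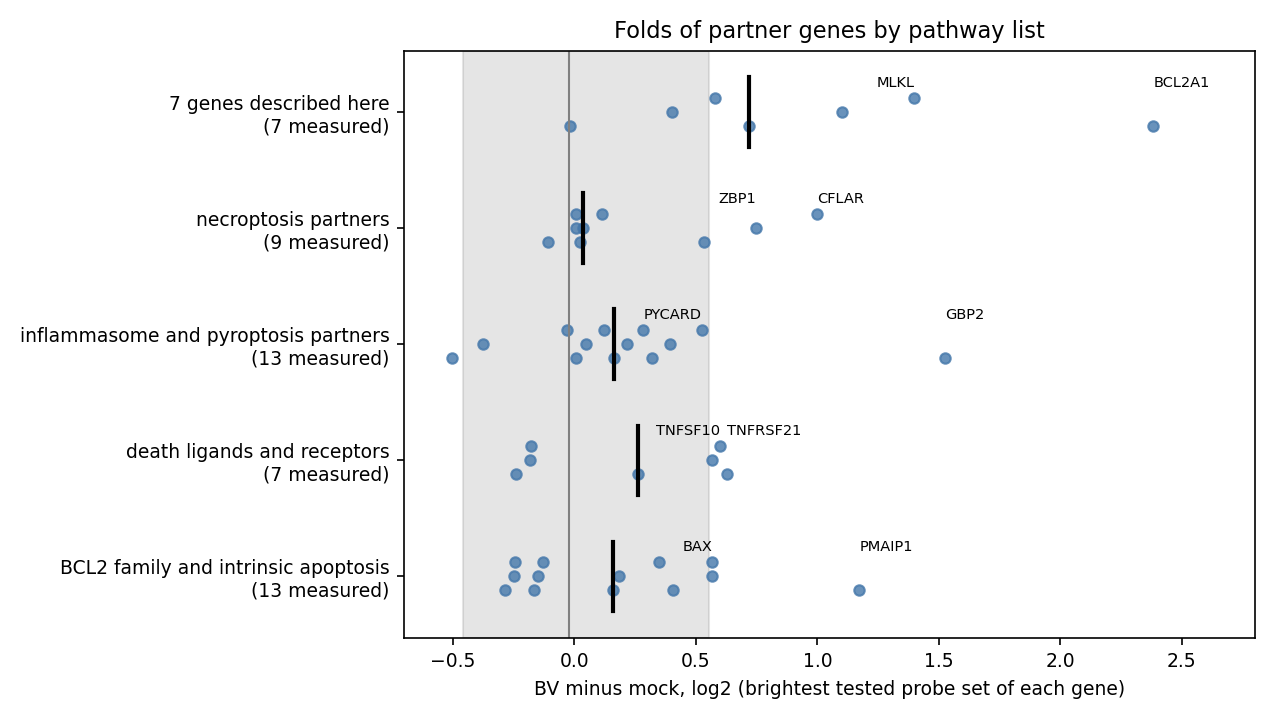
Folds (x axis, BV minus mock, log2) of the 7 genes and of the 4 partner lists, 1 dot per gene, with black bars at list medians and the 2 genes of largest absolute fold named. The grey band spans the percentiles 5 to 95 of all tested probe sets, -0.46 to 0.55, and the grey line is their median of -0.021. List medians of partners lie between 0.038 and 0.26, within the band.

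The genes whose 6 pair differences lay nearest to those of MLKL, by the root mean square difference among 11142 other named genes, were TYMP (0.230), MAMU-I (0.285) and LOC700227 (0.345). TYMP encodes thymidine phosphorylase and had a fold of 1.47 ± 0.30, and MAMU-I, an MHC class I gene of macaques, had 1.64 ± 0.26. LOC700227 had 1.67 ± 0.28. Nearest to BCL2A1 were IFI44 (0.855), PLAC8 (0.856) and TGFBI (0.957), with folds of 2.41 ± 0.36, 2.09 ± 0.36 and 2.31 ± 0.37. Adjusted p in limma was 0.266 to 0.422 for these 6 genes, and none passed. Distances around BCL2A1 were thus larger than around MLKL, and the measure favours genes of similar fold.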

How the data were processed

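Total RNA of 12 brain tissue pieces was labelled with biotin and hybridised to arrays, per the labels' protocols. The authors deposited linear intensities, 1 column per array for 52865 probe sets, made with GCOS 1.4.0.036 among the tools, per the submitters' processing notes. How probes were summarised and scaled is not given in the sources used here. Symbols are those of the platform annotation (24969 probe sets with 1 symbol, 361 with several, 27535 with none listed), and 6 of the 7 member symbols also occur in a RefSeq table of Macaca fascicularis.

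Here the 12 arrays were quantile-normalized and taken as log2(intensity + 3.49), where 3.49 is percentile 10 of the deposited values. This understates the folds of dim genes. The 99 control probe sets were then left out, and the filter kept those whose mean reached percentile 40 of all means (4.95). The pieces of a hemisphere were averaged, and limma 3.58.1 under R 4.3.3 was fitted to 3 BV and 3 mock values with animal as a block, eBayes with a trend and Benjamini-Hochberg adjustment over 31660 probe sets, two-sided. Animal is the block because both hemispheres came from 1 animal. Departures from the group mean were compared over probe sets between BV and mock tissue, as correlations r. By animal, r was 0.62, 0.16 and 0.36 in animals 1, 2 and 3, and so weakest in animal 2. By replicate number, r was 0.28 to 0.62, but same-numbered arrays share the piece as well as the animal. The fits were also run on simulated data with known folds. The noise there was independent between arrays, so the simulation does not cover pieces of a hemisphere that resemble each other.

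Members and lists were chosen with earlier results of these data known. Named were all probe sets of the members, the 2 partners of largest absolute fold per list, ISG15, and the 3 genes nearest in pattern to MLKL and to BCL2A1. Some inflammasome sensors and cell type markers were named in addition. CASP1 had no probe set for that rule, and the planned promoter motif search was not run. Precision is limited by the number of animals.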

Additional observations from a re-analysis of the deposited data

Results flagged for a closer look

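Among the 6 mock arrays, the CASP8 probe set stood apart in replicate 4, at 6.14 on the log2 scale, against 4.96 to 5.39 on the other mock arrays. This gap took up 0.631 of the range of the group. Of 16 groups of 6 arrays checked in this way it was the only one marked, and chance marks about 5% of groups. Mock replicate 4 was also the highest mock array for each of the other tested probe sets, though it was not marked there. Without mock replicate 4 the CASP8 fold was 0.16 (limma adjusted p = 0.674).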

How the results depend on the processing

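The folds of MLKL, RIPK3, CASP4, FAS, BCL2A1 and GSDMD stayed above 0 under every alternative in which they were tested. None passed at an adjusted p of 0.05 except without animal 2, where MLKL (1.55), CASP4 (1.46 and 1.38), FAS (1.07) and BCL2A1 (3.30) did and 5 member probe sets were called. Without single arrays, 0 member probe sets were called, with 1 to 7 at an unadjusted p under 0.05 in limma. Of all 31660 tested probe sets, 1703 to 5026 had such a p in those fits. CASP8, at -0.019, turned positive in the piece 1 arrays (0.21), without animal 2 (0.063) and in the pair fit without mock replicate 6 (0.034), an alternative chosen after seeing the data. Leaving out single arrays, it ran from -0.20 to 0.16. The median fold of the 7 genes ran from 0.40 without animal 3 to 1.25 with the filter at the 60th percentile, where RIPK3, CASP8 and FAS were no longer tested. The 9 calls over all probe sets became 1 without normalization, 5 with no filter and 1 without the variance trend. They became 4 when the animal block was left out of the fit to hemisphere means. On single arrays they became 55 with the replicate block, 40 in that fit without mock replicate 6, 30 with animal as the block, 38 with a term for piece and 25 with duplicateCorrelation. They were 14 in piece 1 and 0 in piece 2 (1747 at an unadjusted p under 0.05), 1, 1845 and 82 without animals 1, 2 and 3, and 0 to 43 without single arrays. Neither leaving out the animal block nor using the replicate block on single arrays changed a call of a member. The cause of these shifts was not tested. The number of animals and dim signals (CASP8, FAS, BCL2A1 in mock tissue) limit precision.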
